A study of Mus musculus with 38 samples.

Results

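Small RNA was sequenced from sperm of 19 male mice whose dams had been fed a protein-restricted diet, 9 PRCT and 10 PRPR mice, out of 38 mice in the series. The mice were chosen by the diet group in their labels. All were inbred C57BL6/J mice born to dams on a restricted diet (PR, 8% protein) through pregnancy and lactation. At weaning on day 21, the PRCT mice were moved to the control diet (CT, 20% protein) while the PRPR mice stayed on the restricted diet, and both were kept on it until they were killed at 11 to 13 weeks of age after a fast. The comparison therefore asks what continued restriction after weaning did in mice that had already been restricted before it. By the study's list of contents, the diets also differ in fat, sugar, fibre and vitamins, which cannot be told apart from protein here. Brothers were split between the diets, so that 9 litters held 1 mouse of each group, and 1 PRPR mouse (36K3) had no PRCT littermate. Each mouse is named below by its ID, of which the first 3 characters name the litter. The remaining 19 mice, 10 CTCT and 9 CTPR, came from control dams and are used only where the effect of the post-weaning diet was compared between dams' diets.

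Sperm carry short RNAs of several kinds. Fragments of transfer RNA, most of them from the 5′ end, are abundant in mature sperm and are partly taken up during passage through the epididymis. piRNAs guide Piwi proteins against transposons in the testis, and microRNAs (miRNAs) pair with messenger RNAs through their seed, bases 2 to 8. Small nuclear RNA (snRNA) belongs to the spliceosome, and small nucleolar RNA (snoRNA) guides modification of ribosomal RNA (rRNA). Diet before conception has been linked to sperm tRNA fragments and miRNAs in rodents, which is why these classes are described member by member.

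The miRNA rows name precursors, and the arm that a read came from is not given. Both mature arms of the precursors with the most reads are therefore shown where they were found among the RefSeq entries used here (GRCm38.p6). They are written 5′ to 3′ with the seed in capitals. No sequence is shown for mir-143, mir-3535 and the 5p arm of mir-34c, and RefSeq may still hold them. Of the 10 precursors with the most reads, 8 were matched, and they are shown because they carry 43.1% of the miRNA reads. The 5p arms of mir-10a and mir-10b share 1 seed.
mmu-miR-148a-3p: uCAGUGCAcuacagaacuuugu
mmu-miR-148a-5p: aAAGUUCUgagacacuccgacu
mmu-miR-21a-3p: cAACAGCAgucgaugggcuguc
mmu-miR-21a-5p: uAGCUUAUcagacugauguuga
mmu-miR-10a-5p: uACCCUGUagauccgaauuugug
mmu-miR-10a-3p: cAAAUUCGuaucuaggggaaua
mmu-let-7g-5p: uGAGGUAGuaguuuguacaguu
mmu-let-7g-3p: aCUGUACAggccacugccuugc
mmu-miR-99a-5p: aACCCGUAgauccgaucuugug
mmu-miR-99a-3p: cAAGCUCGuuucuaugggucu
mmu-miR-34c-3p: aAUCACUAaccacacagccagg
mmu-miR-10b-5p: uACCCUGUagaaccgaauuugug
mmu-miR-10b-3p: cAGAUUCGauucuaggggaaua
mmu-miR-881-3p: aACUGUGUcuuuucugaauaga
mmu-miR-881-5p: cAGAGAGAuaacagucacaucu

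Between 10834482 and 13496750 clean reads were counted per mouse, of which 5551605 to 7612603 matched the genome. The depth did not separate the groups, with medians of 6519785 genome-matching reads in PRCT and 6184420 in PRPR (two-sided exact permutation test, p = 0.222). The share of clean reads matching the genome was 46.2% to 58.2%. Its median was 54.8% in PRCT and 52.7% in PRPR (two-sided exact permutation test, p = 0.151). Each library came from a different mouse. Mouse 08G5 (PRPR) and mouse 31A3 (PRCT) stood apart in their totals. The class rows of 08G5 fell 1242386 reads short of its genome-matching reads, whereas those of the other 18 mice fell short by 495 to 119111. The latter value belongs to 31A3, whose tRNA total of 352056 reads was below the 469889 reads of its isoacceptors. Calls and directions that changed without litters 08G and 31A are given. All levels are shares of sequenced RNA in bulk sperm, in which fewer cells of a type and less RNA per cell cannot be told apart.

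The share of genome-matching reads in each of 11 categories was compared first. Of the 11, snRNA alone passed a test, that between littermates over all 9 litters. This call ended under each other denominator. With a litter left out, the test could pass snRNA only together with another category, as it did without 51O. The other 10 did not pass over all 9 litters. Without regard to litter, 0 of 11 categories (0%) passed the test (two-sided exact permutation test of the 2 groups, Benjamini-Hochberg adjusted p of at least 0.949). The composition taken as a whole gave p = 0.934 in the same kind of test. The largest category, snoRNA, took 13.6% to 47.2% of reads in PRCT (median 22.8%) and 10.6% to 34.2% in PRPR (median 28.9%). Cellular tRNA took 4.77% to 24.6% in PRCT (median 11.6%) and 6.02% to 19.2% in PRPR (median 10.6%). piRNA took 4.35% to 14.2% (median 11.3%) and 5.87% to 19.3% (median 9.02%), and miRNA 1.07% to 5.66% (median 3.32%) and 0.997% to 5.26% (median 3.63%). The groups overlapped over most of their range in each of these classes.

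**Figure D1:**
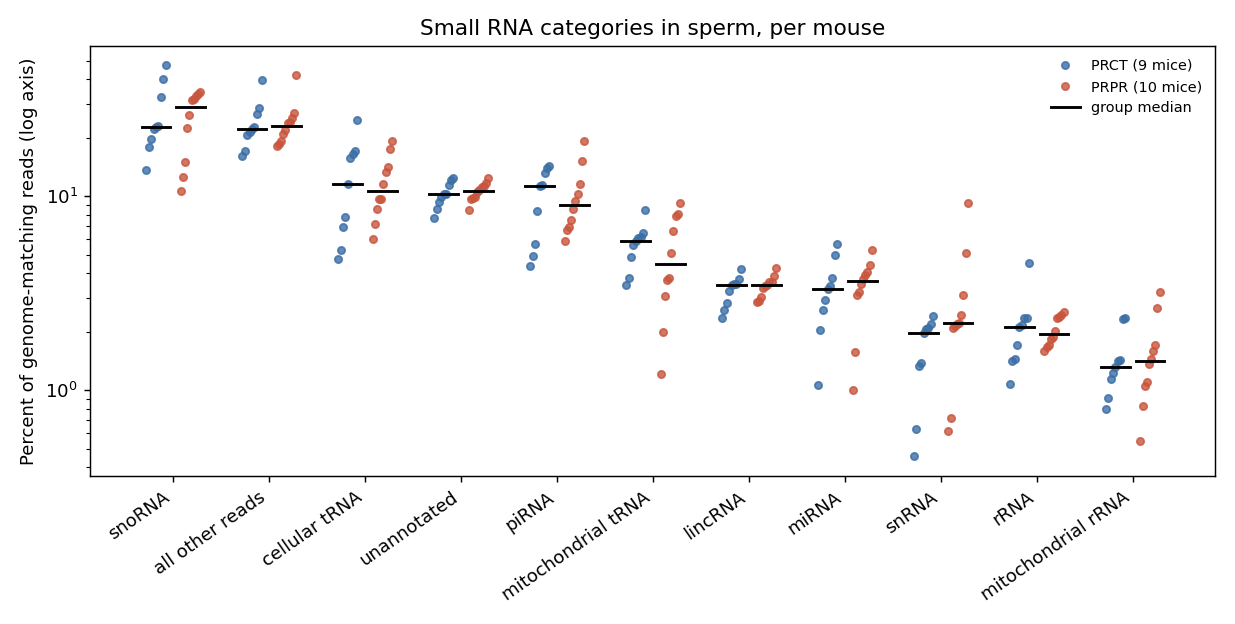
Percent of genome-matching reads (log axis) in 11 small RNA categories, 1 point per mouse, for 9 PRCT mice (blue) and 10 PRPR mice (red), with the group medians as black lines. The groups overlap in every category, and 51O3 stands above the other PRPR mice in snRNA at 9.22%.

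Mean differences were small beside the spread. Cellular tRNA was 12.2% ± 6.69 (SD, n = 9) in PRCT and 11.7% ± 4.32 (SD, n = 10) in PRPR (exact permutation p = 0.835). Mitochondrial tRNA was 5.64% ± 1.51 and 5.07% ± 2.76 (p = 0.585 by the same exact test), and rRNA 2.13% ± 1.01 and 2.04% ± 0.358 (p = 0.860, exact test). lincRNA was 3.28% ± 0.590 and 3.45% ± 0.442, mitochondrial rRNA 1.44% ± 0.553 and 1.55% ± 0.818, and unannotated reads 10.2% ± 1.56 and 10.6% ± 1.14, in each case with overlapping groups. Littermates were compared next, because brothers resembled each other. Deviations from the group mean correlated between littermates by 0.894 for mitochondrial rRNA, 0.847 for miRNA, 0.641 for piRNA and 0.530 for cellular tRNA, and by -0.175 for lincRNA, each over 9 litters. Littermates share a dam and do not share a library.

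Within litters, the snRNA share was higher in the PRPR mouse than in its PRCT brother in 9 of 9 litters. In the 9 PRCT mice it ranged from 0.457% to 2.43% (median 1.96%), and in the 10 PRPR mice from 0.618% to 9.22% (median 2.21%). The pairs, PRCT first, were 0.457% and 0.618% in litter 14A, 0.633% and 0.718% in 08G, and 1.38% and 2.08% in 23F. They were 1.34% and 2.14% in 59L, 2.09% and 3.08% in 31A, and 1.96% and 2.21% in 46I. The smallest steps were in 39F, with 2.43% and 2.44%, and 40H, with 2.19% and 2.22%, and the largest in 51O, with 2.06% and 9.22%. The steps are thus uneven, since 2 litters differed by a factor of 1.02 or less and 1 by a factor of 4.48.

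The mean step was 1.13 percentage points ± 2.29 (SD, n = 9 litters), or a 1.45-fold difference on the log2 scale. The exact sign-flip permutation test over litters gave p = 0.0039, the smallest value that 9 litters allow, and an adjusted p of 0.043 over the 11 categories, so that 1 of 11 categories (9.09%) passed. Between the groups as a whole the means were 1.61% ± 0.704 (SD, n = 9) in PRCT and 2.98% ± 2.52 (SD, n = 10) in PRPR and did not pass (exact permutation p = 0.117, adjusted p = 0.949). Much of that difference came from mouse 51O3 at 9.22% and mouse 36K3 at 5.10%, and without both of them the difference fell from 1.37 to 0.324 percentage points (exact permutation p = 0.398). Without litter 51O the mean step was 0.380 percentage points over 8 litters (exact sign-flip p = 0.0078, the smallest 8 litters allow), and mitochondrial rRNA then had the same p (adjusted p = 0.043 for both). When any other litter was left out the p was 0.0078 as well, by the same exact test, and the adjusted p was 0.086. That is the smallest adjusted p that 8 litters allow over the 11 categories unless another category has as small a p. These tests could not pass snRNA alone, so the lost call says nothing about the litter left out. Without the incomplete litters 08G and 31A the PRPR mouse was higher in 7 of 7 litters, with an adjusted p of 0.172 (exact sign-flip p = 0.016). That too is the smallest adjusted p that 7 litters allow for 1 category alone.

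The call ended with every other denominator tried. Per annotated genome-matching read, the PRPR mouse was higher in 7 of 9 litters (exact sign-flip p = 0.016, adjusted p = 0.156), and per genome-matching read outside snoRNA in 8 of 9 (exact p = 0.020, adjusted p = 0.195). Relative to snoRNA reads it was higher in 7 of 9 litters (1.57-fold, exact p = 0.016, adjusted p = 0.156), and per clean read in 6 of 9 (1.40-fold, exact p = 0.047, adjusted p = 0.516). When each of the 25 deposited class rows seen in all 19 mice was tested on its own, snRNA had the smallest p, and its adjusted p was 0.098. The deposited row does not list which snRNAs it holds. Other values of the same mice moved unevenly with it. In litter 51O the snoRNA share was 22.8% in the PRCT mouse and 31.5% in the PRPR mouse, the mitochondrial tRNA share 6.10% and 1.21%, and the summed miRNA markers of muscle 1809 and 502 reads per 1000000 genome-matching reads. In litter 59L the snoRNA share was 17.8% and 33.6%, and in litter 40H 19.8% and 12.5%. The part of these measures in the snRNA step was not tested.

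**Figure D2:**
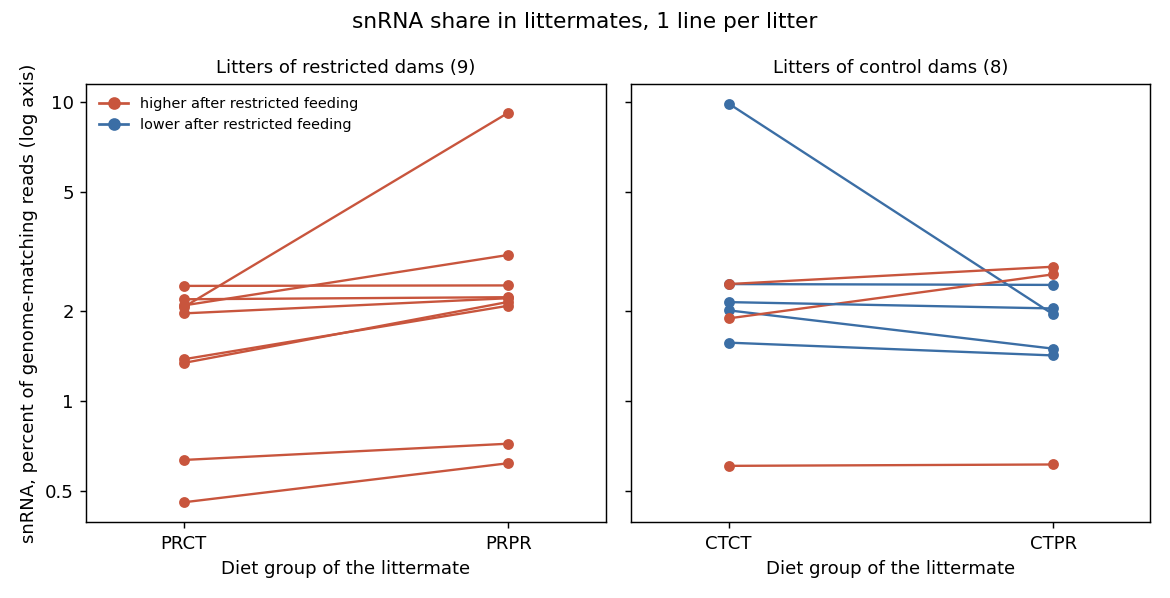
snRNA as percent of genome-matching reads (log axis) in littermates, 1 line per litter, for 9 litters of restricted dams (left) and 8 litters of control dams (right), coloured by whether the littermate on the restricted diet after weaning was higher (red) or lower (blue). All 9 lines on the left rise, against 3 of 8 on the right.

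The same step was then set beside that in litters of control dams, which share no mice with it. There the CTPR mouse was higher than its CTCT brother in 3 of 8 litters, with a mean of -0.951 percentage points ± 2.85 (SD, n = 8). One CTCT mouse, 35F2, held 9.90% snRNA against 1.95% in its CTPR brother, and without litter 35F the mean step after control dams turned to 0.049 percentage points over 7 litters. The difference between the steps was 0.82 on the log2 scale (exact permutation of 9 and 8 litters, p = 0.010, adjusted p = 0.113 over the 11 categories). It was 2.08 percentage points on the linear scale (exact permutation p = 0.031, adjusted p = 0.345). Without litter 35F these differences were 0.53 on the log2 scale (exact permutation p = 0.034) and 1.08 percentage points (exact permutation p = 0.182). For mice 47I1 and 47I2 of a control dam, the labels and the study's list of mice give opposite groups. The labels were followed, and with the 2 exchanged the log2 difference was 0.87 (exact permutation p = 0.005, adjusted p = 0.055). Cellular tRNA had a mean step of -0.717 percentage points after restricted dams and 4.67 after control dams (log2 difference -0.57, exact permutation p = 0.079, adjusted p = 0.306). Its negative mean came from litter 59L at -13.1, since the PRPR mouse was higher in 6 of 9 litters with a median step of 2.45, and without 59L the mean was 0.832 (log2 difference -0.43, exact permutation p = 0.146). Mitochondrial tRNA differed by -0.95 on the log2 scale (exact permutation p = 0.083), and by -1.15 with 47I1 and 47I2 exchanged (exact permutation p = 0.028, adjusted p = 0.153).

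Mitochondrial rRNA was higher in the PRPR mouse in 8 of 9 litters, by a mean of 0.166 percentage points ± 0.434 (SD, n = 9 litters), and did not pass (exact sign-flip p = 0.285). In the remaining 9 categories the PRPR mouse was higher in 3 to 6 of 9 litters.

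Members of the tRNA, miRNA and piRNA classes were tested together. Of 1815 members with at least 10 reads in at least 15 of the 19 mice, 0 (0%) differed between PRPR and PRCT (edgeR quasi-likelihood test, smallest adjusted p = 0.9997). An unadjusted p under 0.05 was reached by 10 members (0.551%), 8 of them higher (0.441%) and 2 lower (0.110%) in PRPR, all of them piRNA. DESeq2 called 0 of the same 1815 members as well. At an unadjusted p under 0.05 it had 15 higher and 14 lower of the 1815 by median-of-ratios size factors. By genome-matching reads it had 10 higher and 5 lower of the 1815. With litter as a block, 0 members (0%) passed and 10 (0.551%) had an unadjusted p under 0.05, 6 of them higher (0.331%) and 4 lower (0.220%). The groups did not overlap for 0 of the 1815 members (0%). The median log2 fold change over all members was 0.06, with 1060 higher. It turned to -0.12, with 658 higher, without mouse 40H3, to -0.036 without mouse 23F4 and to -0.014 without mouse 14A4. With trimmed-mean scaling it was 0.0089. These fold changes carry wide errors, with a median standard error of 0.40 on the log2 scale for tRNA, 0.49 for miRNA and 0.54 for piRNA.

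**Figure D3:**
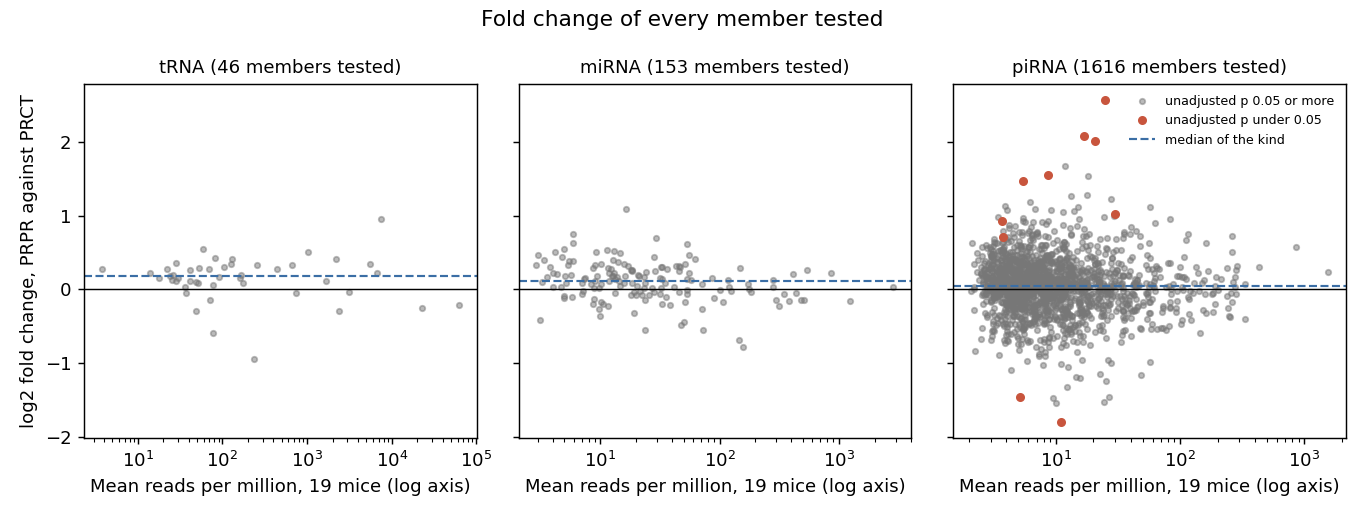
log2 fold change of PRPR against PRCT for each of 46 tRNA isoacceptors, 153 miRNA precursors and 1616 piRNAs tested, against the mean reads per 1000000 genome-matching reads in 19 mice (log axis). The dashed lines are the medians of each kind (0.18, 0.12 and 0.05), and the red points are the 10 piRNAs with an unadjusted p under 0.05.

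tRNA fragments were dominated by few isoacceptors. Of 53 isoacceptors with a read, 46 passed the filter and held more than 99.9% of the tRNA reads, and the 8 with the most reads held 94.2%. Glycine GCC alone took 52.5%. In reads per 1000000 genome-matching reads (RPM), tRNA-Gly-GCC ranged from 17855 to 145692 in PRCT (median 71119) and from 28178 to 89852 in PRPR (median 57079). The highest value, in mouse 59L1, lay outside the PRPR range. The log2 fold change was -0.22 ± 0.36 (SE, p = 0.552, edgeR), and without 59L1 it was 0.0086. tRNA-Glu-CTC ranged from 11520 to 58211 RPM in PRCT (median 20253) and from 11120 to 26599 in PRPR (median 21279), again with 59L1 at the top. Its log2 fold change was -0.25 ± 0.29 (SE, edgeR p = 0.408), and 0.018 without 59L1.

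tRNA-Lys-CTT ranged from 3080 to 9121 RPM in PRCT (median 6047) and from 3566 to 12712 in PRPR (median 7013), with PRPR higher in 7 of 9 litters. tRNA-Val-CAC ranged from 1880 to 11737 RPM (median 3270) and from 2695 to 15936 (median 5002), and tRNA-Val-AAC from 376 to 3517 RPM (median 1758) and from 654 to 4853 (median 2131), each also higher in 7 of 9 litters. Both valine fragments peaked in mouse 46I3 among the PRPR mice. None of these members passed the test, with log2 fold changes of 0.23 ± 0.30, 0.34 ± 0.39 and 0.41 ± 0.43 (SE, edgeR), which fell to 0.094, 0.057 and 0.25 without mouse 46I3. Without 40H1 that of Val-CAC was 0.63. The 5′ end rows credit more reads to Val-AAC than its isoacceptor row holds (16193 against 4853 RPM in 46I3), so the split between the valine isoacceptors is uncertain. tRNA-Glu-TTC was at 3183 ± 1369 RPM (SD, n = 9) in PRCT and 3104 ± 1465 RPM (SD, n = 10) in PRPR. tRNA-Asp-GTC was at 2650 ± 2728 and 2162 ± 651 RPM, a log2 fold change of -0.29 ± 0.41 (SE, edgeR) that became 0.26 without mouse 59L1 and 0.079 with litter as a block.

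**Figure D4:**
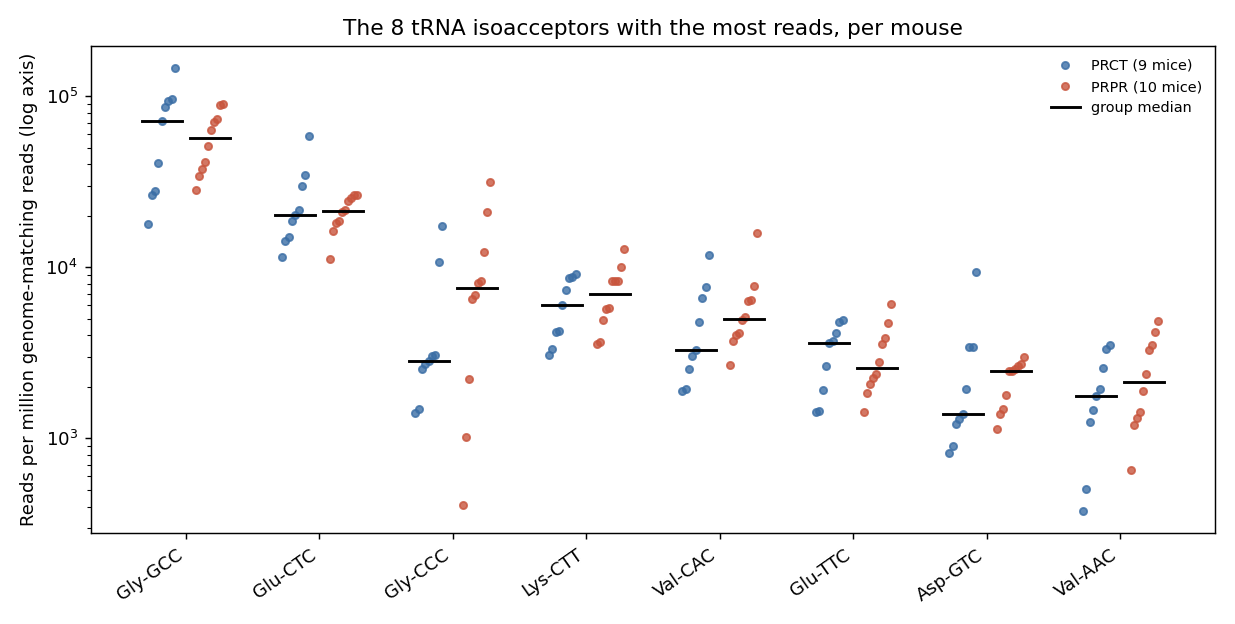
Reads per 1000000 genome-matching reads (log axis) of the 8 tRNA isoacceptors with the most reads, 1 point per mouse, for 9 PRCT mice (blue) and 10 PRPR mice (red), with group medians as black lines. The groups overlap for all 8, and Gly-GCC lies highest with medians of 71119 RPM in PRCT and 57079 RPM in PRPR.

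The largest fold change upward among isoacceptors was that of tRNA-Gly-CCC, which differs from Gly-GCC at the anticodon. It ranged from 1408 to 17523 RPM in PRCT (median 2850) and from 409 to 31362 in PRPR (median 7531). The log2 fold change was 0.96 ± 0.64 (SE, edgeR p = 0.145), and it lay between 0.56 without mouse 40H3 and 1.49 without mouse 51O1, at which point its unadjusted p was 0.026. PRPR was higher in 5 of 9 litters. Reads shared by the glycine isoacceptors were placed differently by the rows for 5′ ends, in which Gly-CCC took 59427 ± 37039 RPM (SD, n = 9) in PRCT and 54730 ± 24776 RPM (SD, n = 10) in PRPR, and Gly-GCC only 5169 ± 2792 and 5647 ± 2236. The split between the glycine isoacceptors is therefore uncertain. Pooled, the 4 glycine isoacceptors took 56.4% of tRNA reads in both groups, with 72451 ± 44531 RPM in PRCT and 67807 ± 31271 RPM in PRPR (exact permutation p = 0.792).

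Pooled by amino acid, none of the 23 groups of isoacceptors passed (exact permutation test, adjusted p of 1 in each). The groups listed as Sup and Undet are among them. These name no amino acid, held 0 RPM in PRCT and could not pass. Glutamate stood at 28034 ± 15458 RPM (SD, n = 9) in PRCT and 24048 ± 5866 RPM (SD, n = 10) in PRPR, valine at 7081 ± 4333 and 9061 ± 5137, and lysine at 6316 ± 2562 and 7409 ± 3077. Valine and lysine were higher in the PRPR mouse in 7 of 9 litters. Selenocysteine had the smallest p, at 593 ± 159 RPM in PRCT and 745 ± 234 RPM in PRPR (exact permutation p = 0.120). Within the 9 isoacceptors known as sources of 5′ fragments in sperm (Gly-GCC, Gly-CCC, Glu-CTC, Glu-TTC, Val-CAC, Val-AAC, Lys-CTT, Lys-TTT and His-GTG), 6 were higher and 3 lower in PRPR, with 0 called and a median log2 fold change of 0.23 against 0.18 over all 46 isoacceptors. Of the 9 isoacceptors that the study labelled in its own plot, 8 passed the filter, of which 5 were higher and 3 lower with 0 called and a median of 0.10. That list was chosen by the study on these samples. It holds tRNA-Ala-TGC, the lowest fold change among isoacceptors, at 52.6 to 1885 RPM in PRCT (median 147) and 49.2 to 308 RPM in PRPR (median 157). The value of 1885 RPM belongs to 59L1, and the log2 fold change of -0.95 ± 0.61 (SE, edgeR p = 0.133) became 0.46 ± 0.39 without that mouse.

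The 5′ end was the main source of tRNA reads in both groups, and part of the reads fell in no end row. The deposited 5′ end total was 85.5% ± 1.47 (SD, n = 9) of tRNA reads in PRCT and 85.5% ± 2.02 (SD, n = 10) in PRPR (exact permutation p = 0.951). The 3′ end took 0.315% ± 0.0655 and 0.340% ± 0.0567 (exact p = 0.372), and reads ending in the added CCA took 0.264% ± 0.0975 and 0.311% ± 0.175 (exact p = 0.484). Of 77 end-specific features tested, 0 (0%) passed (edgeR, smallest adjusted p = 0.978) and 0 (0%) had an unadjusted p under 0.05. The direction was nevertheless one-sided, since 32 of 36 5′ ends, 15 of 20 3′ ends and 18 of 21 CCA ends were higher in PRPR, with medians of 0.33, 0.12 and 0.17 on the log2 scale. The isoacceptors did the same in 36 of 46, beside 1060 of all 1815 members, and in 29 to 46 of 46 when each mouse was left out in turn. Their median was then 0.051 without mouse 46I3 and at most 0.38. These features share reads, mice and a denominator, so their counts are not independent of each other. The pair with the most reads had log2 fold changes below 0, of -0.12 ± 0.37 for the Gly-CCC and -0.24 ± 0.29 for the Glu-CTC 5′ end (SE, edgeR). Those of Val-AAC, Lys-CTT and Gly-GCC had 0.36 ± 0.37, 0.24 ± 0.30 and 0.13 ± 0.32.

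The smallest p among the ends belonged to 5′ ends. The 5′ end of tRNA-Leu-CAG ranged from 9.47 to 34.6 RPM in PRCT (median 20.1) and from 11.8 to 97.0 in PRPR (median 27.9), and was higher in the PRPR mouse in 8 of 9 litters. Its log2 fold change was 0.82 ± 0.42 (SE, unadjusted p = 0.061, adjusted p = 0.978, edgeR). The 5′ end of tRNA-SeC-TCA, the selenocysteine tRNA, ranged from 189 to 385 RPM (median 271) and from 228 to 573 (median 437), also higher in 8 of 9 litters. Its log2 fold change was 0.48 ± 0.25 (SE, unadjusted p = 0.067, adjusted p = 0.978, edgeR). The groups overlapped for both.

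Of 593 miRNA precursors with a read, 153 passed the filter and held 98.7% of the miRNA reads, and the 10 with the most reads held 58.3%. None of the 153 was called, 102 had a higher and the rest a lower level in PRPR, and the median log2 fold change was 0.12. That direction rested on mouse 40H3, without which 46 were higher and the median was -0.16, and on the scaling, since the median was 0.015 with trimmed-mean scaling and also with litter as a block. mir-148a led with 20.7% of miRNA reads. It ranged from 526 to 6176 RPM in PRCT (median 1889) and from 425 to 6717 RPM in PRPR (median 2336), a log2 fold change of 0.03 ± 0.50 (SE, edgeR p = 0.957). mir-143, known from smooth muscle, followed with 350 to 2969 RPM (median 1108) and 226 to 3077 RPM (median 993), a log2 fold change of -0.16 ± 0.45 (SE, edgeR). The groups overlapped over most of their range, with mouse 39F5 at the top of PRCT and 40H3 at the top of PRPR for both.

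**Figure D5:**
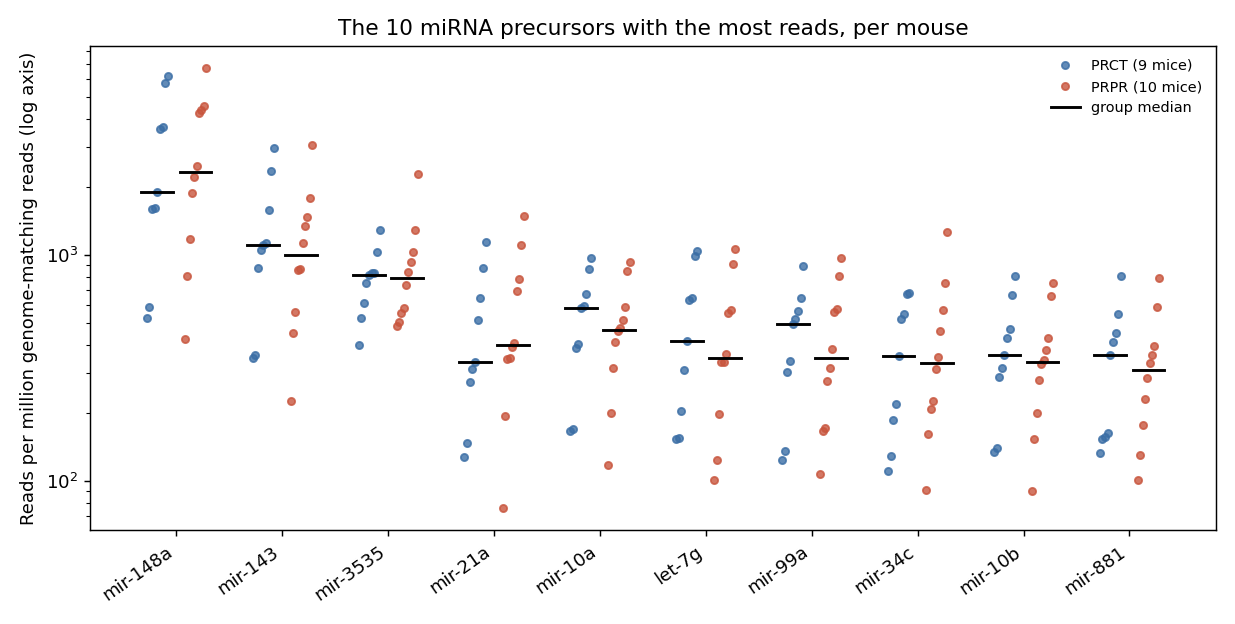
Reads per 1000000 genome-matching reads (log axis) of the 10 miRNA precursors with the most reads, 1 point per mouse, for 9 PRCT mice (blue) and 10 PRPR mice (red), with group medians as black lines. The groups overlap throughout, and mir-148a lies highest with medians of 1889 RPM in PRCT and 2336 RPM in PRPR.

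None of the other leading precursors was called. mir-3535 was at 786 ± 264 RPM (SD, n = 9) in PRCT and 922 ± 540 RPM (SD, n = 10) in PRPR, mir-21a at 484 ± 342 and 582 ± 437, and let-7g at 504 ± 342 and 455 ± 323. mir-10a was at 534 ± 281 and 485 ± 255 RPM, mir-99a at 446 ± 248 and 433 ± 289, and mir-10b at 401 ± 224 and 360 ± 209. mir-34c, made in the male germ line and carried by sperm, was at 379 ± 229 and 439 ± 351 RPM, and the X-linked testis miRNA mir-881 at 354 ± 229 and 338 ± 213. Their log2 fold changes lay between -0.15 and 0.26, and each of these 8 reversed its direction when 1 mouse was left out.

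The smallest p among miRNA belonged to mir-16-1, a miRNA with many cell cycle targets. It ranged from 0 to 18.2 RPM in PRCT (median 11.0) and from 6.41 to 47.9 RPM in PRPR (median 15.4), and was higher in the PRPR mouse in 7 of 9 litters. Its log2 fold change was 1.09 ± 0.58 (SE, unadjusted p = 0.074, adjusted p = 0.9997, edgeR). mir-30b ranged from 10.3 to 36.3 RPM (median 20.6) and from 9.73 to 92.1 RPM (median 26.7), a log2 fold change of 0.70 ± 0.42 (SE, edgeR) that was 0.43 without mouse 36K3. The mature form of mir-16-1 is also made from a second locus, so its reads may be split between rows.

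Families were described by their counts, and 0 members were called in each. Numbered copies of a miRNA, such as let-7f-1 and let-7f-2, count as separate members, so the members of a family are not independent. Of all 153 miRNAs, 102 were higher in PRPR, and 46 without mouse 40H3. Of 12 let-7 and mir-98 members, growth-restraining miRNAs, 3 were higher and 9 lower in PRPR with a median log2 fold change of -0.15 (let-7g -0.15, let-7i -0.22, let-7f-1 -0.15, let-7f-2 0.13). Of 8 members of mir-10, mir-99, mir-100 and mir-125, 1 was higher and 7 lower with a median of -0.06. The 4 tested members of mir-34 and mir-449, which act in spermatogenesis, were all higher, with a median of 0.38 (mir-34c 0.21, mir-34b 0.24, mir-34a 0.54, mir-449a 0.51), and a smallest unadjusted p of 0.31 (edgeR). That of mir-34c turned to -0.13 without mouse 40H3 and was 0.04 with litter as a block. The summed level of this family had medians of 395 RPM in PRCT and 372 RPM in PRPR. Of 6 mir-30 members, 4 were higher and 2 lower (median 0.16), of 5 members of mir-17-92 and mir-106b-25, 3 and 2 (median 0.02), and of mir-183, mir-96 and mir-182, 1 and 2 (median -0.07). Of 16 X-linked testis miRNAs, 13 were higher and 3 lower (median 0.21), while their summed level had medians of 638 RPM in PRCT and 509 RPM in PRPR. The miRNAs linked to paternal stress, of which 5 passed the filter, split into 2 higher and 3 lower (median 0.00).

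miRNAs used as markers of other cells were detected in both groups. The summed level of the 9 detected muscle markers, led by mir-143, was 387 to 3443 RPM in PRCT (median 1270) and 250 to 3548 RPM in PRPR (median 1153). The 5 markers of the epididymal epithelium, led by mir-200a, summed to 132 to 1043 RPM (median 392) and 96.9 to 1298 RPM (median 450.6). The 7 detected blood markers summed to 4.74 to 39.3 RPM (median 23.8) and 6.94 to 65.5 RPM (median 20.6), of which 3 passed the filter. mir-126a of endothelium was at 23.5 to 212 RPM and 20.0 to 205 RPM, and mir-122 of liver at 0 to 3.28 and 0 to 3.60 RPM. The 14 detected sperm and testis markers summed to 383 to 1531 RPM (median 941) and 315 to 2556 RPM (median 780), so miRNAs of the labelled tissue were detected in every library. The study reported high purity of its sperm, from DNA methylation at imprinted regions and a representative RNA trace without ribosomal RNA peaks. Sperm also carry miRNAs taken up in the epididymis, and the source of the other markers was not tested. Of the tested markers, 2 of 6 for muscle, 3 of 3 for blood and 5 of 5 for epididymal epithelium had a higher fitted level in PRPR. So had 11 of 13 for sperm and testis, with 0 called, and 102 of all 153 miRNAs. The part of the markers in the other results was not tested.

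piRNA reads were spread over far more members. Of 353240 piRNAs with a read, 1616 passed the filter and held 47.3% of the reads of listed piRNAs, and the 10 with the most reads held 7.25%. The listed members hold 61.7% to 78.9% of each mouse's piRNA total. None of the 1616 was called, 922 were higher in PRPR, and the median log2 fold change was 0.05. Without mouse 40H3 the median was -0.12. piR-mmu-3744158, with the most reads, ranged from 189 to 2712 RPM in PRCT (median 1287) and from 356 to 3751 RPM in PRPR (median 1387), a log2 fold change of 0.23 ± 0.47 (SE, edgeR p = 0.620). For piR-mmu-9033385 the means were 382 ± 257 RPM (SD, n = 9) in PRCT and 473 ± 235 RPM (SD, n = 10) in PRPR, and for piR-mmu-9053627 they were 381 ± 275 and 289 ± 240.

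The other 2 of the leading 5 showed how unevenly reads were listed. piR-mmu-2819708 reached 2161 RPM in PRCT and 2670 RPM in PRPR but was listed at 0 in 3 PRCT mice and 1 PRPR mouse. piR-mmu-14081516 was listed at 0 in 18 mice and at 8606 RPM in mouse 51O1. How reads that match several piRNAs were credited is not given in the sources used here, and its part in these zeros was not tested.

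Among the 10 piRNAs with an unadjusted p under 0.05, piR-mmu-3163373 had the smallest, at 0 to 4.28 RPM in PRCT (median 3.56) and 2.18 to 18.7 RPM in PRPR (median 6.95). It was higher in the PRPR mouse in 8 of 9 litters, with a log2 fold change of 1.47 ± 0.54 (SE, unadjusted p = 0.013, adjusted p = 0.9997, edgeR). piR-mmu-14945722 ranged from 1.39 to 25.1 RPM (median 3.19) and from 1.62 to 201 RPM (median 5.17). Its log2 fold change of 2.58 ± 0.95 (SE, edgeR) was 0.71 with litter as a block, and the highest values were 201 RPM in mouse 36K3 and 116 RPM in 51O3. piR-mmu-35987410 had a log2 fold change of 1.55 that fell to 0.51 without mouse 51O3, and piR-mmu-9708107 one of 2.02 that fell to 0.38 without mouse 40H3. piR-mmu-46094007 was at 2.47 ± 1.10 RPM (SD, n = 9) in PRCT and 4.75 ± 2.50 RPM (SD, n = 10) in PRPR. Lower in PRPR were piR-mmu-14382186, at 7.70 ± 3.93 and 2.78 ± 2.59 RPM and higher in the PRPR mouse in 1 of 9 litters, and piR-mmu-50933386, at 17.7 ± 13.2 and 5.06 ± 5.03 RPM. The former was listed at 0 in 3 PRPR mice and the latter in 4. Without mouse 59L1 the log2 fold change of piR-mmu-50933386 went from -1.80 to -1.47 ± 0.88 (SE, unadjusted p = 0.108, edgeR). Of all 1815 members, 1 (0.0551%) was higher in the PRPR mouse in all 9 litters and 0 (0%) lower in all. That member, piR-mmu-16499656, was singled out after its values were seen, and stood at 31.8 ± 12.4 RPM in PRCT and 55.2 ± 32.6 RPM in PRPR (log2 fold change 0.80 ± 0.39 SE, unadjusted p = 0.053, adjusted p = 0.9997, edgeR).

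Levels of single members also went together in littermates, and the cause was not tested. Between littermates, deviations of the log2 level from the group mean correlated with a median of 0.51 over the 46 isoacceptors, 0.67 over the 153 miRNA precursors and 0.26 over the 1616 piRNAs, each over 9 litters. The post-weaning effect was last compared between dams' diets, member by member over all 38 mice. Of 1731 members with at least 10 reads in at least 30 mice, 0 (0%) passed the test of the difference in effect (edgeR, smallest adjusted p = 0.657), and 19 (1.10%) had an unadjusted p under 0.05. The median difference was -0.68 on the log2 scale for 150 miRNA, -0.59 for 46 tRNA isoacceptors and -0.45 for 1535 piRNAs, that is, the step from CT to PR after weaning was lower after restricted dams than after control dams. With trimmed-mean scaling in place of genome-matching reads these medians were -0.18, 0.012 and 0.0042, and with litter as a block they were -0.39, -0.33 and -0.27. The direction for tRNA and piRNA thus depended on the scaling. The smallest p belonged to piR-mmu-14945722, whose effect differed by 6.13 ± 1.58 on the log2 scale (SE, unadjusted p = 0.00038, adjusted p = 0.657, edgeR). It was 2.52 ± 1.64 with mice 47I1 and 47I2 exchanged (unadjusted p = 0.131, edgeR) and 2.57 ± 1.595 with litter as a block (unadjusted p = 0.124, edgeR). tRNA-Gly-GCC differed by -1.16 ± 0.54 (SE, unadjusted p = 0.038, adjusted p = 0.941, edgeR) and tRNA-Ala-TGC by -1.68 ± 0.77 (SE, unadjusted p = 0.035, adjusted p = 0.941, edgeR). With litter as a block these were -0.81 and -0.47, and with trimmed-mean scaling -0.49 and -1.03.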

How the data were processed

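Per the labels, sperm small RNA was sequenced on each of 38 mice. The authors used mm10 and databases of miRNA, tRNA, piRNA and other RNA to annotate reads with SPORTS 1.0, and deposited raw read counts per class and member, without normalisation or pooling. Settings and database versions are not given in the sources used here. Genome-matching counts were used, as percent of or per 1000000 genome-matching reads. Class values are the deposited totals, summed over databases, except for cellular tRNA and all other reads. For cellular tRNA the isoacceptors were summed. All other reads are the genome-matching reads that the other categories leave, including any that a mouse's class rows lack. Summing members for miRNA and piRNA too had been intended, but listed piRNAs hold only part of the piRNA total.

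Groups were compared by two-sided exact permutation tests of mean percentages (92378 regroupings) and, within 9 litters, of changed signs (512), with Benjamini-Hochberg adjustment over 11 categories. Litter pairing comes from the mouse IDs, and littermates' deviations correlated by -0.175 to 0.894 over the categories. Members with at least 10 reads in at least 15 mice (30 of 38 for the interaction) were tested with edgeR 4.0.16 (glmQLFit, glmQLFTest) in R 4.3.3, with genome-matching reads as library size. Alternatives were DESeq2 1.42.0, trimmed-mean (TMM) scaling, other filters, a litter block, other denominators and leaving out mice. Python 3.11.15, numpy 2.4.6, scipy 1.17.1 and pandas 2.3.3 were used. The tests were tried on simulated data.

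Members and lists were chosen with earlier results of these data known. Named were the 8 isoacceptors, 10 miRNA, 5 piRNA and 5 tRNA ends with the most reads, up to 5 per direction and kind (3 for ends) with an unadjusted p under 0.05, and the up to 4 members of each list with the most reads. No member had an adjusted p under 0.05 to be named for it. Those with the smallest p of a kind, and tRNA-Ala-TGC and tRNA-SeC-TCA, were added after their values were seen. Alternative denominators of snRNA, leaving out single litters, leaving out mice 51O3 and 36K3, single class rows and pooling by amino acid were also chosen after seeing the data.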

Additional observations from a re-analysis of the deposited data

Results flagged for a closer look

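Mice that stood far from the rest of their group were looked for in the 11 categories and 35 named members of each group, 92 groups of values in all. Of these, 15 held such a mouse by Dixon's test, and chance alone gives about 1 in 20 where values are normal. Read levels are skewed, some members were named for a low p and the tRNA ends repeat reads of their isoacceptors, so that rate is not a measure of chance for these 92.

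Among the categories, mouse 51O3 held 9.22% snRNA against at most 5.10% in the other PRPR mice. Mouse 08G3 (PRCT) held 4.52% rRNA against at most 2.36%. Mouse 08G5 (PRPR), whose class rows do not add up to its genome-matching reads, held 41.97% of reads outside the named categories against at most 26.7%. That category is the remainder left by the others, so in 08G5 it includes the 1242386 reads that its class rows lack.

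Mouse 59L1 (PRCT) held 58211 RPM of tRNA-Glu-CTC against at most 34460, 9430 RPM of tRNA-Asp-GTC against at most 3425, and 53292 RPM of the 5′ end of tRNA-Glu-CTC against at most 31507. Mouse 46I3 (PRPR) held 15936 RPM of tRNA-Val-CAC against at most 7791, and 16193 RPM of the 5′ end of tRNA-Val-AAC against at most 8979. Mouse 36K3 (PRPR) held 2271 RPM of mir-3535 against at most 1292.

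Among piRNAs, mouse 51O1 (PRCT) held 8606 RPM of piR-mmu-14081516 while the other PRCT mice were listed at 0. Mouse 40H3 (PRPR) held 946 RPM of piR-mmu-9053627 against at most 379, and 227 RPM of piR-mmu-9708107 against at most 35.2. Mouse 51O3 held 71.3 RPM of piR-mmu-35987410 against at most 10.3. In PRCT, 23F4 held 18.7 RPM of piR-mmu-9708107 against at most 9.62, and 08G3 held 5.04 RPM of piR-mmu-46094007 against at most 2.91.

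The snRNA step between littermates differed between dams' diets by 0.82 on the log2 scale (exact permutation test over 9 and 8 litters, unadjusted p = 0.010, adjusted p = 0.113), higher in 9 of 9 litters of restricted dams and 3 of 8 of control dams. Without litter 35F of a control dam it was 0.53 (exact permutation p = 0.034).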

How the results depend on the processing

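The count of called members was 0 under each alternative that kept a filter. Without one, edgeR called 347 of 353886 members, 173 higher and 174 lower in PRPR. By kind these were 8 of 53 tRNA (5 higher and 3 lower), 339 of 353240 piRNA and 0 of 593 miRNA. The share called was thus far larger for tRNA than for piRNA, and the cause was not tested. The replicate block (litter) left it at 0, as it did for tRNA ends and the interaction, and moved snRNA to 1.13 percentage points and past the test, the only call among these that it changed. With mice 47I1 and 47I2 exchanged, 5 of 1731 members were higher and 39 lower in the interaction at an unadjusted p under 0.05. As labelled these were 4 and 15 of the same 1731, and 0 were called either way. Within-block tRNA-Asp-GTC was 0.0787 and mir-3535 -0.0298.

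No other category passed under any alternative, except mitochondrial rRNA within litters without 51O. Directions that turned, in percentage points except on the log2 scale, were cellular tRNA (0.0515 on the log2 scale), rRNA (0.0381 on the log2 scale, 0.0590 without litters 08G and 31A), miRNA (-0.0615 outside snoRNA) and all other reads (-0.0259 with the deposited tRNA total, -0.905 outside snoRNA). mir-148a turned to -0.0215 (TMM), -0.0078 (DESeq2, median of ratios) and -0.0451 (without litters 08G and 31A), and mir-3535 to -0.0269 in the 18 littermates without the block.

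Leaving out each mouse in turn gave, in percentage points, -1.47 to 1.01 for cellular tRNA, -0.595 to 0.989 for piRNA, -0.213 to 0.360 for miRNA, -3.13 to 1.07 for snoRNA, 0.675 to 1.63 for snRNA, -0.218 to 0.213 for rRNA, -0.0672 to 0.231 for mitochondrial rRNA, -1.80 to 2.15 for all other reads and -0.485 to 0.253 for the 5′ end share. As log2 fold changes it gave -0.35 to 0.0086 for tRNA-Gly-GCC, -0.34 to 0.018 for tRNA-Glu-CTC, -0.20 to 0.066 for tRNA-Glu-TTC, -0.41 to 0.26 for tRNA-Asp-GTC, -0.20 to 0.26 for mir-148a, -0.44 to 0.092 for mir-143, -0.027 to 0.35 for mir-3535, -0.0091 to 0.53 for mir-21a, -0.29 to 0.016 for mir-10a, -0.38 to 0.057 for let-7g, -0.26 to 0.15 for mir-99a, -0.13 to 0.36 for mir-34c, -0.34 to 0.043 for mir-10b and -0.29 to 0.19 for mir-881.

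The snRNA step within litters (log2 0.53) kept its direction but lost its call at 0.54 per annotated read, 0.50 outside snoRNA, 0.65 per snoRNA read and 0.48 per clean read. It was 0.58 without litters 08G and 31A, and 0.33 to 0.60 with each litter left out. With fewer litters the test could pass snRNA only together with another category, as it did without 51O. The cause of the step was not tested.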
